A study of Mus musculus with 6 samples.

Results

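The numbered Zfp genes of the mouse are those whose symbol is Zfp followed by digits only. They were followed in synovial tissue over the course of collagen-induced arthritis. Probes were chosen by gene symbol, leaving out Zfp36, and by detection above the array's background rows on at least 2 of the 6 arrays, a rule that uses no difference between weeks. The array carried 352 such probes for 258 genes. Of these, 207 probes for 162 genes passed the detection filter, among 13633 of 25697 probes in all, which represent 9360 named genes. The synovium was dissected from the ankles of DBA/1 mice, males of 6 to 8 weeks, a strain that develops joint inflammation when given type II collagen. Each mouse was immunized with bovine collagen of that type (100 µg, emulsified with complete Freund's adjuvant) and boosted through a footpad 2 weeks later, then with incomplete adjuvant. Tissue was taken 6, 9 or 15 weeks after immunization, times that the study calls induction, peak and resolution, and each week had 2 arrays. Tissues were pooled before RNA extraction, the boosted foot was left out, and the RNA integrity number averaged 9.5. No untreated mice were analysed here. The labels do not say that the 2 arrays of a week hold separate pools of animals, so p-values here reflect the spread between arrays alone, and that spread may be technical.

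Zfp is a naming prefix and not a pathway. Most of these genes encode nuclear proteins with arrays of C2H2 zinc fingers, in which each finger folds around a zinc ion and touches a few bases of DNA. Many carry a KRAB domain, which recruits the corepressor Trim28 and the histone methyltransferase Setdb1 and so places repressive chromatin, often on retroelements. The family is large in the mouse and lies in part in clusters of neighbouring copies. Other genes of the same prefix have different work, among them RNA-binding proteins, ubiquitin ligases and ribosome assembly factors.

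Values are log2 signals after background correction with an offset of 16 and quantile normalization, and a difference between weeks is a log2 change on that scale. A change was called when limma's p, adjusted over 10167 features by the Benjamini-Hochberg method, was under 0.05. Each gene stands by its brightest probe unless a second probe is named. Signals of different probes do not rank RNA amounts, so levels are compared between weeks and not between genes. Probe sequences were not used here, so whether a probe also reads a close copy of its Zfp gene was not tested, and a value is that of a probe named for the gene.

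The 6 arrays were alike in depth except for a dimmer second week 15 array, whose median intensity was 99.07 against 123.1 to 129.5 on the others. The week 15 arrays also resembled each other less, with Pearson's r across all features of 0.9753, against 0.9913 at week 6 and 0.9911 at week 9. Across the 162 Zfp genes, r was 0.9711 between the week 15 arrays, 0.9808 at week 6 and 0.9863 at week 9. The first week 15 array held skeletal muscle RNA: the median log2 signal of 7 muscle markers was 8.60 there and at most 4.72 on the other 5 arrays. Of 8 synovial fibroblast markers on the array, 6 were above background on every array and Cdh11 on none. All 4 B cell markers on the array and 4 of 5 T cell markers were above background on every array, and Cd8a was not. Of 5 fat cell markers, 2 were above background on every array, and the defining Fabp4 and Plin1 were on none. In whole tissue, fewer cells of a type and less RNA per cell cannot be told apart. The calls of Zfp genes that rest on week 15 are given below with and without each of its arrays.

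Most Zfp genes that passed the filter were measurable throughout. Of the 162 genes, 127 were above background on all 6 arrays, and none was above background in 1 week only. The share of probes tested was 58.8% for Zfp probes and 53.1% for all probes. Near the threshold, the 10 Zfp probes detected on exactly 2 arrays had mean log2 signals from 4.82 to 5.09, and the 38 detected on 1 array, which were left out, from 4.60 to 5.01. Another 107 probes were detected on no array. Among the genes tested, 3 were above background on neither array of week 6, 8 on neither of week 9 and 7 on neither of week 15. For Zfp395, 1 of the 8, the change from week 6 to week 9 is therefore only a bound, at least 1.08-fold lower.

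Zfp24, Zfp106 and Zfp457 were low at week 9 and higher again at week 15. These were the only Zfp genes called in any comparison, 3 of 162, or 1.85%, in the step from week 9 to week 15, where 0.974% of all features were called higher. No Zfp gene was called lower in that step, where 0.216% of all features were, although at an unadjusted p under 0.05, 26 Zfp genes were lower (16%, against 12.9% of all features) and 22 higher (13.6%, against 10.3%). Between week 6 and week 9 no Zfp gene was called in either direction by limma, against 0.334% of all features called lower and 0.0197% called higher. At an unadjusted p under 0.05, 11 Zfp genes were lower (6.79%, against 8.59% of all features) and 13 higher (8.02%, against 7.43%) at week 9 than at week 6. Without either week 15 array, Zfp24 and Zfp106 were called lower in this step, where 1.68% of all features were called.

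Zfp24 encodes a SCAN-domain zinc finger protein that is needed for myelination in the mouse brain. Its log2 signal was 7.75 and 7.65 at week 6, 6.50 and 6.63 at week 9, and 7.75 and 7.85 at week 15. Both week 9 arrays lay below all 4 others, and the arrays of week 15 were at or just above those of week 6. The change from week 9 to week 15 was 1.23 ± 0.16 (SE, n = 2 arrays a week, limma adjusted p = 0.0288), a 2.35-fold rise. Against the mean of weeks 6 and 15, week 9 was lower by a log2 change of -1.19 ± 0.14 (adjusted p = 0.0206). Zfp24 was also the only Zfp gene called by the F test over the 3 weeks (adjusted p = 0.0397), where 0.62% of all features were called. Its fall from week 6 to week 9, -1.14, just missed the threshold (adjusted p = 0.0506).

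Zfp106 encodes an RNA-binding protein whose loss in mice causes degeneration of motor neurons and muscle. Its log2 signal was 7.85 and 7.96 at week 6, 6.94 and 6.84 at week 9, and 7.90 and 8.04 at week 15. As with Zfp24, the week 9 arrays stood alone at the bottom. The rise from week 9 to week 15 was 1.08 ± 0.16 (SE, adjusted p = 0.0406), or 2.11-fold, and the week 9 value was below the mean of the other weeks by -1.05 ± 0.14 (adjusted p = 0.0336). A second, dimmer Zfp106 probe read 7.07 and 6.90 at week 6, 6.52 and 6.43 at week 9, and 7.26 and 7.32 at week 15. It showed the same order of weeks with smaller changes, 0.81 from week 9 to week 15 and -0.66 against the mean of the others, neither called when every probe was tested (adjusted p = 0.0556 and 0.0718). The Zfp106 signal on the first week 15 array, which held muscle RNA, was no higher than on the second, with either probe. That sets 1 array against 1, and the part of muscle RNA in the Zfp106 values was not tested.

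Zfp457 had the largest change of any Zfp gene in the step from week 9 to week 15, and also the widest gap of the 162 genes between the week 15 arrays. Its log2 signal was 7.29 and 7.37 at week 6, 5.85 and 4.93 at week 9, and 7.37 and 8.60 at week 15. Both week 9 arrays were again below the other 4, and only the first of them was above background. The change from week 9 to week 15 was 2.60 ± 0.44 (SE, adjusted p = 0.0483). Against the mean of weeks 6 and 15 the change was -2.27 ± 0.38 and was not called (adjusted p = 0.0549).

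These calls rest on few arrays. How many features were called at all also turned on the array left out. Far more were called without the first week 15 array, as given at the end, so a call kept there is no check. In the step from week 9 to week 15, all 3 were lost when either week 6 array, either week 9 array or the second week 15 array was left out, and all 3 were kept without the first week 15 array. The adjusted p of Zfp24 in that step was 0.053 without the second week 15 array, 0.021 without the first, and ranged from 0.0129 to 0.282 over 15 alternatives. Its log2 change was between 0.57, on the authors' log2 values, and 1.31. That of Zfp106 ranged from 0.55 to 1.15 (adjusted p from 0.019 to 0.316), and that of Zfp457 from 1.05 to 3.21 (adjusted p from 0.021 to 0.32 over 14 alternatives), again lowest on the authors' values, where Zfp457 was not called (adjusted p = 0.0567). The week 9 low of Zfp24 and Zfp106 against the mean of the other weeks was called without either week 15 array (for Zfp24, adjusted p = 0.0208 and 0.0265) and was lost without either array of week 6 or week 9. Leaving out an array of week 6 or week 9 left at most 3 features called in the whole table in the step from week 9 to week 15.

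**Figure D1:**
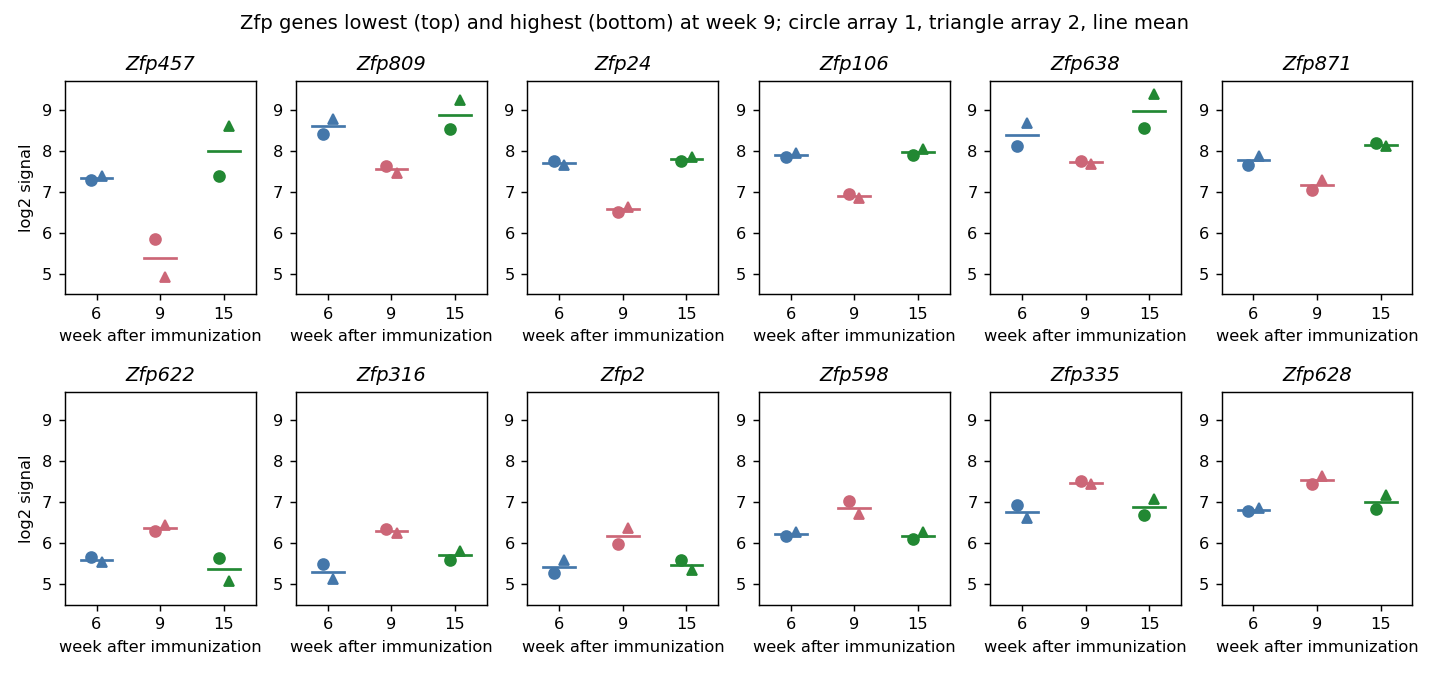
Log2 signal (vertical axis) on each of the 6 arrays by week after immunization (horizontal axis) for the 6 Zfp genes with the lowest and the 6 with the highest week 9 value against the mean of weeks 6 and 15. Circles are the first array and triangles the second, and lines are week means. In the top row both week 9 arrays lie below the other 4, and in the bottom row above them, with the widest gap between arrays in Zfp457 at week 15, 7.37 and 8.60.

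Another 3 genes shared the low at week 9 without a call. Zfp809, a KRAB protein that recognizes the primer binding site of murine leukemia viruses and silences them through Trim28, had log2 signals of 8.41 and 8.78, then 7.62 and 7.47, then 8.52 and 9.23. Its week 9 value was below the mean of the other weeks by -1.19 ± 0.23 (SE, adjusted p = 0.0712). Zfp638, a nucleic acid-binding cofactor of C/EBP factors in fat cell differentiation, read 8.10 and 8.66, then 7.75 and 7.68, then 8.56 and 9.38. Its difference was -0.96 ± 0.26 (adjusted p = 0.131). Zfp871 read 7.66 and 7.86, then 7.03 and 7.28, then 8.18 and 8.10, a difference of -0.80 ± 0.15 (adjusted p = 0.0712). For all 3 genes, both week 9 arrays lay below the other 4. Without the first week 15 array, the difference was -1.37 for Zfp809 and -1.165 for Zfp638. With any single array left out, that of Zfp871 was between -0.92 and -0.67. Over all alternatives, their adjusted p reached 0.468, 0.521 and 0.504.

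In all, 30 of the 162 genes, or 18.5%, had both week 9 arrays below the other 4 arrays, where 13% of all features did, and 30, again 18.5%, had both above, where 20.2% of all features did. By limma, 2 genes, or 1.23%, were called lower at week 9 than the mean of the other weeks, against 0.738% of all features, and none was called higher, against 0.059%. At an unadjusted p under 0.05, 19 genes were lower (11.7%, against 9.52% of all features) and 21 higher (13%, against 11.7%). These shares are not read as particular to the Zfp genes.

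The promoters of the genes at both ends of this comparison are shown because the called genes moved together. Of these, Zfp106 and Zfp457 are printed, with Zfp809, which was low at week 9 without a call. The window of Zfp24 was not used here. RefSeq windows (build GRCm38.p6) were found for 130 of the 162 genes, 162 windows in all, since some genes have several annotated starts. The 250 bases before the start are printed on the strand of the gene, from 5′ to 3′, for Zfp106 at chr2:120563860-120564109 (minus strand), Zfp457 at chr13:67306413-67306662 (minus strand), the first of 2 windows of Zfp809 at chr9:22225453-22225702 (plus strand) and, as a gene high at week 9, Zfp622 at chr15:25984116-25984365 (plus strand). Capitals mark matches on either strand to 7 motifs: the GC box GGGCGG, the CCAAT box CCAAT, the ETS motif CCGGAAGT, the YY1 motif GCCATNTT, the cAMP response element TGACGTCA, the AP-1 motif TGACTCA and the TATA box TATAAA. No motif contains another.

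Zfp106: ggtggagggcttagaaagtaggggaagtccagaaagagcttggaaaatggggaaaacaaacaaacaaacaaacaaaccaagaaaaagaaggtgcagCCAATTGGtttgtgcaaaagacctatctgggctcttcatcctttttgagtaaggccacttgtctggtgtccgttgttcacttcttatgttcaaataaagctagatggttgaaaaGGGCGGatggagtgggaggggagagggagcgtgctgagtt

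Zfp457: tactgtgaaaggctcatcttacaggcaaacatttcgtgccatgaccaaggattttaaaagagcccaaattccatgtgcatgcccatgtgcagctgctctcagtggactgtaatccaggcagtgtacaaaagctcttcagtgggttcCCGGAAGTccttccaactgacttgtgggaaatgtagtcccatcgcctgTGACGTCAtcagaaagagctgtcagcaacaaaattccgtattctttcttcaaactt

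Zfp809: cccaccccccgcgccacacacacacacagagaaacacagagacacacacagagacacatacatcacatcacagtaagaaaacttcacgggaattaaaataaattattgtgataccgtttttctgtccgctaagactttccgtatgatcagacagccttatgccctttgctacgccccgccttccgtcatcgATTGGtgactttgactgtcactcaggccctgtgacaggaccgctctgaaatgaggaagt

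Zfp622: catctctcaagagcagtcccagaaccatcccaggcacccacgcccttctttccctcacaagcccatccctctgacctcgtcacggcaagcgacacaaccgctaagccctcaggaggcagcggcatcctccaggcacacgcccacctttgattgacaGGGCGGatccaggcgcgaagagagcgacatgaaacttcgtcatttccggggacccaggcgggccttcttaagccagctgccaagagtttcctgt

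No motif was found in all 4 windows. The Zfp106 window holds 2 CCAAT matches, on opposite strands and overlapping, and 1 GC box. The Zfp457 window holds 1 ETS motif and 1 cAMP response element, the Zfp809 window 1 CCAAT box and the Zfp622 window 1 GC box. Over the 162 Zfp windows, the GC box was found in 47.5%, against 32.7% of all 32841 mouse promoter windows of this length, and the CCAAT box in 45.7% against 33.9%. The ETS motif was found in 9.88% against 2.88%, the YY1 motif in 8.02% against 3.91% and the cAMP response element in 4.32% against 1.55%. The AP-1 motif was found in 4.32% against 4.46%, and the TATA box in 6.17% against 12.4%. The Zfp windows were also richer in CpG, with a median of 13 CpG a window and 55.6% G and C, against 6 and 52.4% over all windows, and the part of base composition in these shares was not tested. The Zfp windows are those of genes that passed the detection filter, while the full set of windows was not filtered by detection. The part of that difference in these shares was not tested either. A match describes letters and not a bound factor.

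None of the Zfp genes highest at week 9 was called. Zfp622, a factor of large ribosomal subunit maturation known best from its yeast counterpart, had log2 signals of 5.66 and 5.53 at week 6, 6.31 and 6.45 at week 9, and 5.65 and 5.09 at week 15. Its week 9 value was above the mean of the other weeks by 0.89 ± 0.19 (SE, adjusted p = 0.0881). Zfp316 read 5.49 and 5.13, then 6.35 and 6.25, then 5.60 and 5.82, a difference of 0.79 ± 0.16 (adjusted p = 0.0843). Its second tested probe gave 0.65, with the same sign. Zfp598, the ubiquitin ligase that marks collided ribosomes, read 6.17 and 6.29, then 7.03 and 6.71, then 6.10 and 6.27, a difference of 0.66 ± 0.16 (adjusted p = 0.108). Zfp335, a partner of histone H3 lysine 4 methyltransferase complexes that T cell maturation in the mouse needs, read 6.93 and 6.61, then 7.51 and 7.45, then 6.70 and 7.08, a difference of 0.65 ± 0.18 (adjusted p = 0.125). Zfp2, at 0.72, and Zfp628, at 0.64, had adjusted p of 0.119 and 0.114. In each of these 6 genes both week 9 arrays lay above the other 4. Without the first week 15 array, the difference was 1.04 for Zfp622 and 0.74 for Zfp316.

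Between week 6 and week 15 the Zfp genes differed little. None was called by limma in either direction, where 0 of all features were called lower and 0.0492% higher, and at an unadjusted p under 0.05, 11 were lower (6.79%, against 8.52% of all features) and 4 higher (2.47%, against 5.9%). The lowest at week 15 was Zfp1, with log2 signals of 5.82 and 6.09 at week 6, 5.67 and 5.78 at week 9, and 5.21 and 4.88 at week 15. Its change from week 6 to week 15 was -0.91 (adjusted p = 0.152). The highest was Zfp654, with 7.59 and 7.89, then 7.85 and 7.72, then 8.34 and 8.79, a change of 0.82 (adjusted p = 0.21). After them came Zfp467, Zfp523, Zfp60, Zfp706 and Zfp157, from -0.65 to -0.53, and Zfp619, Zfp457, Zfp638, Zfp930 and Zfp346, from 0.70 to 0.54. Zfp706 was above background on neither week 15 array, and its change is only a bound, at least 1.10-fold lower. Several of these changes moved with single week 15 arrays. Without the first and without the second, the change was 1.27 and 0.04 for Zfp457, 1.00 and 0.18 for Zfp638, 0.91 and 0.22 for Zfp930, 0.96 and 0.44 for Zfp619, -0.90 and -0.28 for Zfp523, and -0.32 and -0.97 for Zfp467. Both week 15 arrays stood below the earlier weeks for Zfp1 and above them for Zfp654. Both week 15 arrays were below the other 4 in 27 Zfp genes (16.7%, against 14.3% of all features) and above them in 16 (9.88%, against 11.5%). The corresponding counts for week 6 were 8 below (4.94%, against 8%) and 9 above (5.56%, against 10%). Without the first week 15 array, 9 Zfp genes were called between weeks 6 and 15, Zfp1 and Zfp654 among them (adjusted p = 0.034 and 0.0382, and at most 0.659 and 0.781 over all alternatives), where 9.96% of all features were called, and without the second none was.

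As a group the Zfp genes followed the other features. Their median log2 change from week 6 to week 9 was 0.04, as it was over all features, and their 5th and 95th percentiles were -0.60 and 0.56, against -0.70 and 0.55 over all features. From week 9 to week 15 the median was -0.12 against -0.08, with 58% of Zfp genes and 57.6% of all features lower at week 15. The same percentiles were -0.68 and 0.88, against -0.68 and 0.75. The lowest in this step, after Zfp622 at -1.01, were Zfp526, Zfp787, Zfp282, Zfp60 and Zfp592, from -0.80 to -0.71, none of them called. Without the first week 15 array Zfp526, Zfp787 and Zfp282 changed by -1.06, -1.16 and -0.89. Without the second they were at -0.54, -0.35 and -0.56, and over all alternatives their adjusted p reached 0.404, 0.464 and 0.421. In the step from week 6 to week 9, Zfp101 changed by -0.81 and Zfp128 by 0.67, without a call. From week 6 to week 15 the medians were -0.0024 and -0.02. Scaling each array to its 75th percentile in place of quantile normalization turned the Zfp median from week 9 to week 15 to 0.01 and the share of genes lower to 48.1%, against 52.5% of all features, so that this median has no settled direction.

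**Figure D2:**
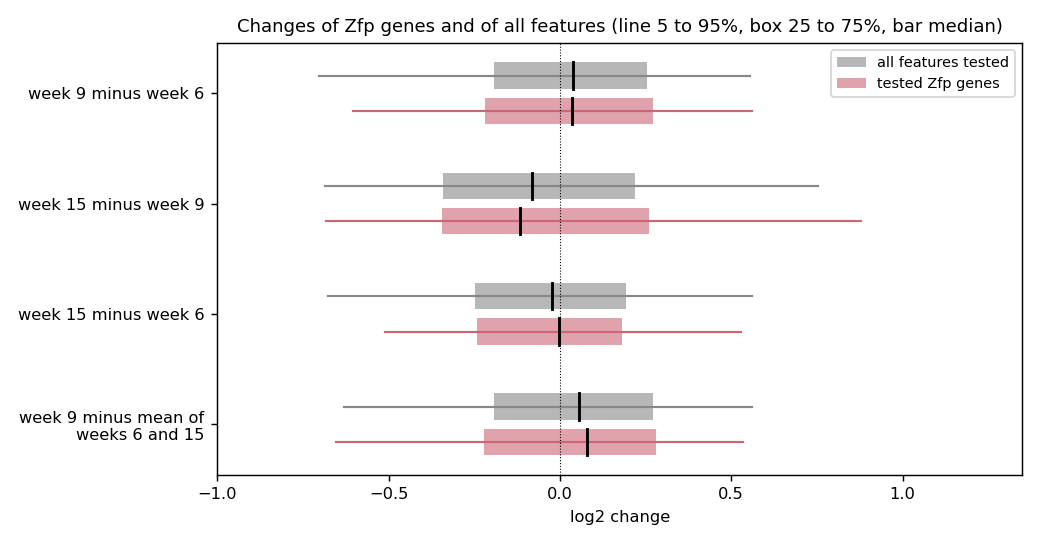
Log2 change (horizontal axis) of the 162 tested Zfp genes and of all 10167 features in 4 comparisons of weeks. Lines span the 5th to 95th percentile, boxes the 25th to 75th, and black bars mark the median. The boxes overlap in every comparison, and the line of the Zfp genes reaches 0.88 against 0.75 from week 9 to week 15.

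Role lists were described by the contrast of week 9 with the mean of weeks 6 and 15. Of 8 KRAB genes known for acting on retroelements or imprints, 3 had a probe and only Zfp809 passed the filter. Of 6 genes of mesenchymal and fat cell fate, 5 were tested and none was called. Zfp638 is given above. In this contrast Zfp521, which restrains fat cell formation in the mouse, differed by 0.05 ± 0.22 (SE, adjusted p = 0.907), Zfp467, which favours fat over bone cells, by -0.20 ± 0.22 (adjusted p = 0.609), and Zfp516, an activator of brown fat genes, by 0.23 ± 0.18 (adjusted p = 0.484). Zfp467 read 5.51 and 5.89 at week 6, 5.22 and 5.12 at week 9, and 4.73 and 5.38 at week 15. Its change from week 6 was -0.53 at week 9 and -0.65 at week 15 (adjusted p = 0.36 and 0.316). Zfp217, named for its part in cancer, was above background on 2 arrays only. Zfp423, a marker of fat cell precursors, did not pass the filter. The median of the 5 was 0.05, against 0.06 over all features.

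The 4 promoter binders tested were not called. Zfp281, a repressor that binds GC-rich DNA, read 8.84 and 9.03 at week 6, 8.75 and 8.51 at week 9, and 9.05 and 9.04 at week 15, a week 9 difference of -0.36 ± 0.15 (SE, adjusted p = 0.228). Its week 9 arrays lay below the other 4. Its relative Zfp148 differed by -0.20 ± 0.15 (adjusted p = 0.466). Zfp263 differed by -0.34 ± 0.22 (adjusted p = 0.406). Zfp384, a binder of collagen gene promoters, differed by 0.30 and was above background on 3 arrays.

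Of 7 chromatin partners, 5 were tested and none was called. Zfp335 is given above. Zfp592, a member of a Zmynd8 complex, differed by 0.51 ± 0.20 (SE, adjusted p = 0.219), Zfp644, a partner of the methyltransferases Ehmt1 and Ehmt2, by -0.42 ± 0.21 (adjusted p = 0.29) and Zfp277, a partner of the Polycomb protein Bmi1, by -0.01 ± 0.16 (adjusted p = 0.965). Zfp652, at -0.07, was above background on neither week 9 array. Among 10 genes of RNA, ribosomes and ubiquitin 8 were tested, and Zfp106 was the 1 called, lower. Zfp451, a SUMO ligase, differed by -0.35 ± 0.15 (adjusted p = 0.247), and both its week 9 arrays lay below the others. Zfp91, a ubiquitin ligase of the noncanonical NF-κB pathway, differed by -0.17 ± 0.14 (adjusted p = 0.502), Zfp207, a spindle protein that binds Bub3, by -0.16 ± 0.14 (adjusted p = 0.552), and Zfp346, a binder of double-stranded RNA, by 0.24 ± 0.17 (adjusted p = 0.433). A second Zfp346 probe had the opposite sign, at -0.14. The 2 immune genes were not called either. Zfp318, which B cells need to make IgD, was 1 of the 6 brightest Zfp probes and read 11.58 and 11.58 at week 6, 11.13 and 11.23 at week 9, and 11.20 and 11.90 at week 15, so that 1 week 15 array lay between those of week 9 and the other above those of week 6. Zfp30, a gene tied to neutrophil recruitment in the mouse lung, differed by 0.34 ± 0.23 (adjusted p = 0.423).

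**Figure D3:**
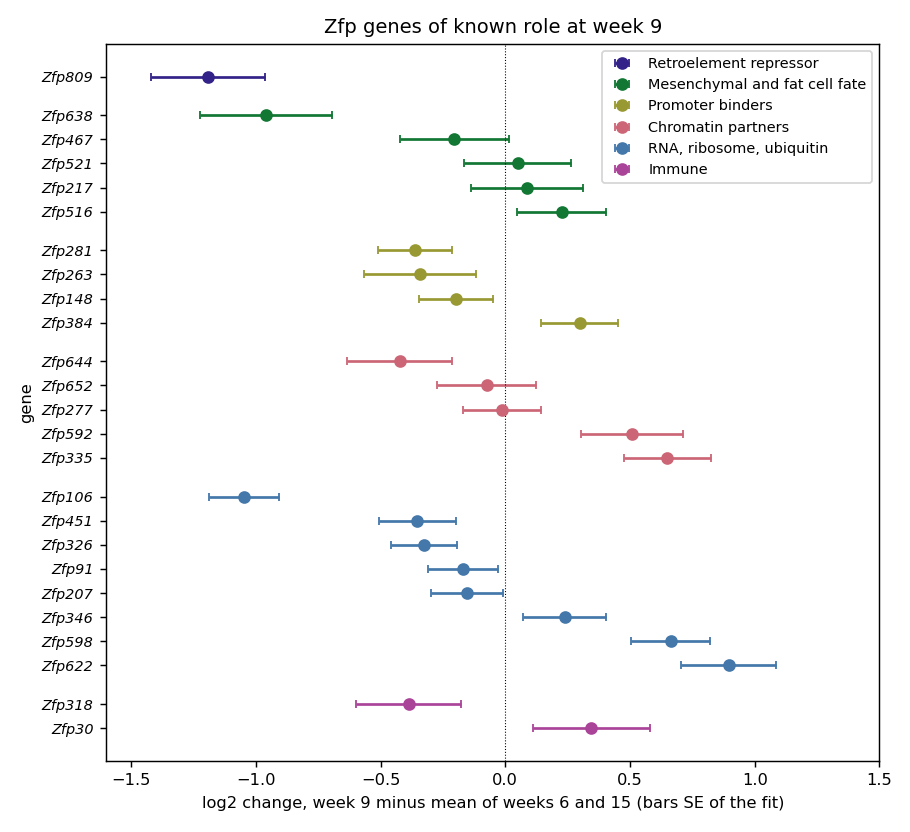
Log2 change of week 9 against the mean of weeks 6 and 15 (horizontal axis) for the 25 tested Zfp genes of the role lists, grouped and coloured by role. Points are estimates from 2 arrays a week and bars the SE of the fit. Zfp809, Zfp106 and Zfp638 lie at -1.19, -1.05 and -0.96, and Zfp622 lies at the other end at 0.89.

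Separate probes for a gene gave a check on single values. Of the 162 genes, 37 had more than 1 tested probe, and in 26 of them all probes had the same sign for week 9 against the mean of the other weeks. The median range between probes of a gene was 0.23. Zfp326, a subunit of a complex that couples RNA polymerase II to splicing, had 3 probes, all lower at week 9, at -0.33, -0.64 and -0.78, and the 2 dimmer probes had the larger changes (adjusted p = 0.225, 0.0879 and 0.0833 when every probe was tested). Zfp212 spread most, from -0.12 to 0.61 over 5 probes, and the 2 probes of Zfp386 opposed each other at -0.59 and 0.14. For Zfp523 the brightest probe changed by -0.58 from week 9 to week 15 (adjusted p = 0.196 when every probe was tested). Its dimmer probe read 5.97 and 6.24 at week 9 and was above background on neither array of week 15, at least 2.09-fold lower (adjusted p = 0.0324). With every probe tested, the calls from week 9 to week 15 were Zfp106, Zfp24, Zfp457, Zfp871 and this Zfp523 probe, where 2.4% of all probes were called.

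**Figure D4:**
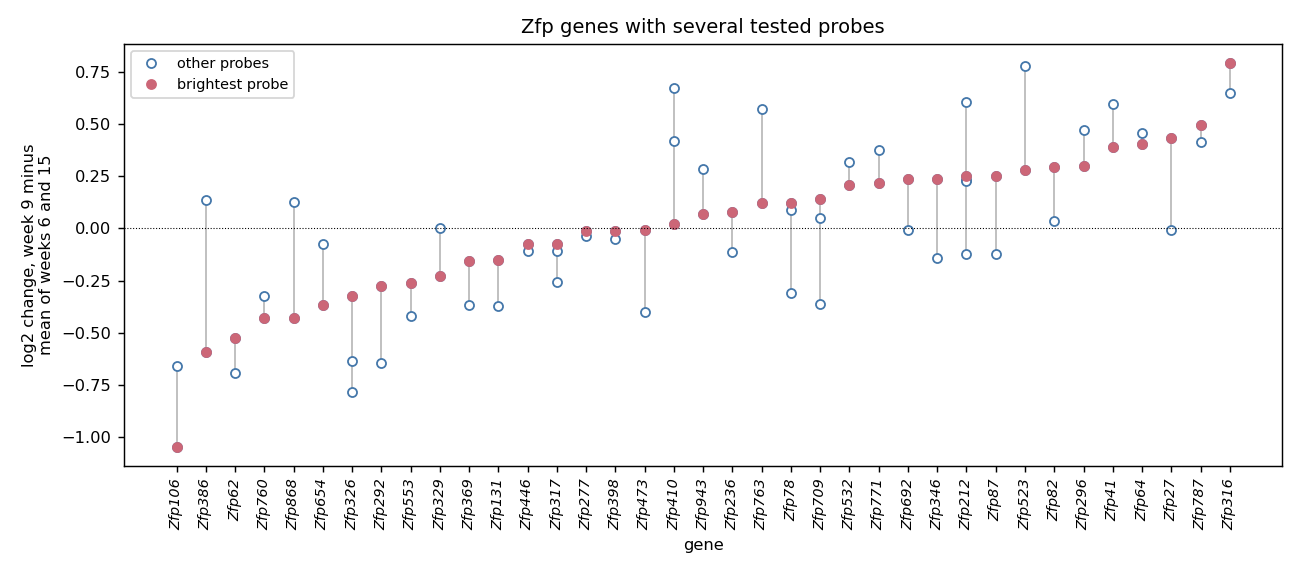
Log2 change of week 9 against the mean of weeks 6 and 15 (vertical axis) for each probe of the 37 Zfp genes with several tested probes, ordered by the brightest probe (filled points) with the other probes as open points. Both Zfp106 probes lie below 0, at -1.05 and -0.66, and the grey lines show the range within a gene, widest in Zfp212 at 0.73.

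Neighbouring Zfp genes did not all change in one direction. In the RefSeq gene order, 83 of the 162 genes lay next to another numbered Zfp gene and 79 did not. The median change of week 9 against the mean of the other weeks was 0.11 for the 83 and 0.03 for the 79, with 36.1% and 45.6% of them lower. Of the 6 genes with the deepest week 9 lows, Zfp106 and Zfp638 had no numbered Zfp gene beside them. The other lows are set beside tested genes of the same unbroken run of numbered Zfp genes, which need not lie directly beside them. Zfp24 differed by -1.19, while Zfp35 and Zfp397 of its run differed by -0.05 (adjusted p = 0.896) and -0.09 (adjusted p = 0.802). In the run of Zfp457 at -2.27 were Zfp459 at 0.33 and Zfp595 at 0.09. Zfp809 at -1.19 shared a run with Zfp599 at 0.22 and Zfp810 at -0.03, and Zfp871 at -0.80 with Zfp811 at 0.22 and Zfp870 at 0.50. Of these genes, Zfp459 and Zfp811 were above background on neither week 15 array and Zfp599 on neither week 6 array, so their values are set against a week at background. These runs were picked by their lowest gene, so milder values beside it follow from the choice. Among runs not picked so, that of Zfp27 had 1 of 7 tested genes lower (median 0.30). Those of Zfp212 and Zfp58 had 1 of 4 (median 0.28) and 1 of 3 (median 0.01). Those of Zfp180 and Zfp933 had 2 of 4 (median -0.02) and 2 of 3 (median -0.22). Whether single genes of a run differ from each other was not tested.

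The partners of KRAB proteins were measured in the same RNA. Of 25 corepressor and heterochromatin genes, 16 were tested and none was called in any comparison. Trim28 had log2 signals of 11.09 and 10.87 at week 6, 11.55 and 11.54 at week 9, and 10.88 and 10.89 at week 15. Both week 9 arrays lay above the other 4, with a difference of 0.61 ± 0.14 (SE, adjusted p = 0.104). Setdb1 differed by 0.44 ± 0.18 (adjusted p = 0.233). The largest change of the list went the other way, in Cbx5, which binds methylated histone H3 lysine 9. It read 8.84 and 8.95 at week 6, 7.96 and 7.81 at week 9, and 8.89 and 8.48 at week 15, a difference of -0.90 ± 0.17 (adjusted p = 0.0696). In Cbx5 both week 9 arrays lay below the other 4. Without the first and without the second week 15 array, the difference was -0.80 and -1.01 for Cbx5, and 0.61 and 0.61 for Trim28. The median of the 16 genes was 0.16, against 0.06 over all features and 0.08 over the Zfp genes.

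Other zinc finger families also held a gene with a week 9 low. Of 19 Zbtb genes tested, 1 was called lower at week 9, where 0.738% of all features were, Zbtb38, a binder of methylated DNA. It read 7.49 and 7.28 at week 6, 5.01 and 5.66 at week 9, and 7.01 and 7.21 at week 15. Its week 9 difference was -1.91 ± 0.21 (SE, adjusted p = 0.018). Of 12 Zc3h genes, 1 was likewise called lower, Zc3h13, a component of the RNA adenosine methylation complex, at -1.10 ± 0.15 (adjusted p = 0.0385). None of 11 Zscan and Zkscan genes was called. Immediate early genes, which respond to tissue handling as well as to inflammation, moved with the step from week 9 to week 15: 8 of 13 tested were called higher, where 0.974% of all features were. The median log2 signal of the 15 listed genes was 7.7 and 8.3 on the week 9 arrays, and 9.5 and 8.7 on those of week 15. The log2 of their summed signal was 13.46 and 13.40 at week 6, 13.72 and 13.99 at week 9, and 15.47 and 15.14 at week 15. The log2 summed signal of the 8 fibroblast markers was between 13.60 and 13.92 at week 6, 13.25 and 13.42 at week 9, and 13.37 and 13.40 at week 15. Their median log2 signal was 7.83 and 7.21, then 6.54 and 6.64, then 6.68 and 6.16. Thy1, among the brightest of them, went the other way, with 12.24 and 12.09 at week 6 and 12.74 and 12.31 at week 9. The macrophage sum was 11.51 and 11.29, then 10.75 and 10.57, then 10.85 and 10.28, and all 4 of its markers were above background on every array. The fat cell sum was 8.73 and 9.02, then 7.41 and 7.41, then 7.79 and 7.35. The T cell sum was 13.73 and 13.76, then 14.38 and 14.10, then 14.12 and 14.01. The sum of 5 endothelial markers was 11.18 and 10.56 at week 6 and 10.24 and 10.44 at week 9. That of 5 neutrophil markers was 13.10 and 12.56, then 12.44 and 12.33. The fibroblast, macrophage, fat cell, endothelial and neutrophil sums were thus lower on both week 9 arrays than on those of week 6. The T cell sum was higher. Not every marker moved with the sum of its list. The neutrophil marker Retnlg read 7.20 and 7.03 at week 6 and 7.60 and 7.27 at week 9. The endothelial marker Pecam1 read 9.89 and 9.35, then 9.63 and 9.83. Cd4 read 6.27 and 6.17 at week 6 and 6.78 and 6.12 at week 9. Lep read 5.96 and 6.26, then 5.18 and 5.99. Cd8a, Fabp4 and Plin1 were above background on no array. The part of these cell and response genes in the Zfp changes was not tested.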

How the data were processed

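Illumina bead arrays (6 in all, 2 for each of 3 weeks) measured the RNA of synovium, and groups were taken from the labels. The deposited signal table holds an intensity for each probe and array, unlogged, per the file headers. How it was normalized was not given in the sources used. A table of the authors' processed log2 values of the same arrays, whose scaling method the sources used here do not give, served as an alternative. Set against the signals, those values ran in the same direction and were not centred, with array medians from 6.7324 to 6.7335. Another 2 columns belong to no sample given and were set aside.

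Of 26821 table entries, 25697 have a probe ID. The other 1124 were taken as control spots, and 13 of them were left out because their log2 signal on some array exceeded the median of these spots by more than 5 median absolute deviations. The other 1111 served as background. A probe's detection p was the share of background spots at or above its signal, with a threshold of 0.05 on at least 2 arrays. Intensities were corrected and normalized with neqc of limma 3.58.1 in R 4.3.3 (offset 16, quantile). With the brightest probe for each gene, and the probes that have no symbol, there were 10167 features. All arrays were fitted in 1 model of week means (lmFit, eBayes), with 3 residual and 4.02 prior degrees of freedom. All p-values are two-sided. With 2 arrays a week, the number of arrays limits the precision.

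The members, role lists and marker lists were chosen with earlier results of these data known. Genes were named when called, when among the 6 lowest, highest or brightest, or when on a role list. The 6 brightest were Zfp318, Zfp292, Zfp362, Zfp131, Zfp472 and Zfp943, none called. Genes named as members of a run or for their several probes were chosen after their values were seen. Gene names came from the platform annotation, and all 352 Zfp probes matched the RefSeq table of GRCm38.p6. Fold changes depend on the offset, so bounds hold on this scale only. For a bound, the mean of the brighter week was set against a floor in the dimmer one: on each array the lowest detected signal, or the probe's signal if that was higher.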

Additional observations from a re-analysis of the deposited data

How the results depend on the processing

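Over 15 alternatives, the directions of the changes called for Zfp24, Zfp106 and Zfp457 held in every alternative that gave a value, and no called change reversed. Their calls did not all hold. Counts of Zfp genes called moved as follows. Without background correction, 2 were called lower from week 6 to week 9, 6 higher and 1 lower from week 9 to week 15, 5 lower at week 9 against the other weeks, and 2 by the F test. With an offset of 50 the counts were 2, 6 higher, 5 and 3 by the F test. Over all features, 0.679%, 3.48% and 2.43% were called in these 3 comparisons without background correction. With an offset of 50 these shares were 0.816%, 2.61% and 1.85%, and in the main analysis 0.354%, 1.19% and 0.797%. With scaling to the 75th percentile, 2 were lower from week 6 to week 9 and 5 at week 9 against the other weeks. Of all features, 0.816% and 1.82% were called there. By the F test 3 Zfp genes were called, and the medians moved to 0.0112 (week 15 minus week 9) and 0.0073 (week 9 against the others). On the authors' values 1 was lower from week 9 to week 15, where 3.24% of all features were called, and the median was -0.0439. With no filter 1 was lower from week 6 to week 9, where 0.186% of all features were called. The median from week 9 to week 15 was then -0.0302. With detection required on all 6 arrays, 1 was lower from week 6 to week 9, where 0.359% of all features were called. By the F test 2 Zfp genes were called. With every probe a feature, 1 was lower from week 6 to week 9, 1 lower from week 9 to week 15, and 2 by the F test. Of all probes, 0.521% and 2.4% were called in these 2 steps. With only the arrays of the weeks compared, 2 were lower from week 6 to week 9 and 0 higher from week 9 to week 15. Of all features, 1.68% and 0.0295% were called in these steps. The shares over all features count both directions and are not given for the F test. The cause of these moves was not tested.

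Leaving out 1 array at a time, so that the lone array of a week is assumed to vary like the others, gave from 0 to 16 Zfp genes higher and 0 to 13 lower from week 9 to week 15, 0 to 2 lower and 0 higher from week 6 to week 9, 0 to 5 lower and 0 to 4 higher from week 6 to week 15, 0 to 11 lower and 0 to 7 higher at week 9 against the others, and 0 to 22 by the F test. Without the first week 15 array, 29 were called from week 9 to week 15, where 19.7% of all features were. In the same setting, 10.4% of all features were called at week 9 against the others. From week 6 to week 15 it was 9.96%, and from week 6 to week 9 it was 1.68%. No such share is given for the F test, so its counts of 0 to 22 are not read as particular to the Zfp genes. The medians ranged from 0.0174 to 0.0363 (week 9 minus week 6), -0.1598 to -0.0283 (week 15 minus week 9), -0.0454 to 0.0338 (week 15 minus week 6) and 0.0379 to 0.1045 (week 9 against the others). The count of genes with both week 9 arrays, or the 1 left, below all others was from 31 to 42. Leaving out an array only relaxes that rule, so this count could not fall below the main 30 and is no check on it.

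The replicate numbers did not pair the arrays: same-numbered deviations correlated at -0.039, 0.1538 and -0.0823. With the number as a replicate block, 0 Zfp genes were called higher from week 9 to week 15, 1 (Zfp24) lower at week 9 against the others and 0 by the F test, where 34 features in all were called from week 9 to week 15. The values of Cbx5 and Trim28 without single week 15 arrays were added after seeing the data.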
